A study of Saccharomyces cerevisiae with 12 samples.

Results

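This comparison sets the *top2ts* strain of *Saccharomyces cerevisiae*, in which topoisomerase II (Top2p) was inactivated by temperature while topoisomerase I (Top1p) remained, against the wildtype strain. Its members are 3 *top2ts* arrays and 3 wildtype arrays, 6 of the 12 arrays of the series, and 5449 *S. cerevisiae* genes were measured on each. The *top2ts* cells were W303 carrying the *top2-1* allele with an intact *TOP1* gene, and the wildtype cells were W303. Both strains were derivatives of W303a, a laboratory background of mating type a. All cultures were grown in rich medium (YPD), arrested in G1 with the mating pheromone α-factor for 90 min at 25°C, and then kept for 90 min at 37°C with more pheromone, which inactivates the *top2-1* protein. RNA was taken from an equal number of cells in 3 independent experiments, and poly-A spike-in RNAs were added just before extraction. The other 6 arrays of the series, treated in the same way, hold *top1Δ* (W303 *top1::natr*) and *top1Δtop2ts* (W303 *top1::natr top2-1*), 3 arrays each. No *top2ts* array came from the permissive temperature, so that the loss of Top2p activity cannot be told apart from any other difference between the strains.

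Topoisomerases cut and reseal DNA to remove the supercoils that form when a polymerase tracks along the helix. Top1p cuts one strand and Top2p passes one double helix through another, so that Top2p can also separate linked chromosomes, a task that makes it essential for mitosis. Either enzyme can relax supercoils during transcription, and Top2p acts here in cells that neither replicate nor divide.

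The levels of the topoisomerase transcripts and of marker genes were read first. *TOP2* (YNL088W) had signals of 3344, 2580 and 1886 on the *top2ts* arrays and 3187, 2122 and 2972 on the wildtype arrays, which overlap. Its log2 change was -0.10 ± 0.19 (SE; adjusted p = 0.750 from limma), and since the allele alters the protein and leaves the gene in place, this level does not check the label. *TOP1* (YOL006C) had 1092, 1313 and 847 in *top2ts* and 983, 1019 and 1098 in wildtype, with a mean of 0.927 in *top1Δ*. Its transcript was therefore present in both strains compared here. The genes of mating type a and of the pheromone response were strongly expressed in all 6 arrays, among them the receptor gene *STE2* with 12940, 14326 and 11260 in *top2ts* and 10888, 15551 and 10194 in wildtype. *STE3*, the receptor gene of the opposite mating type, stayed between 72.1 and 136 in *top2ts* and between 89.0 and 140 in wildtype. Of 4 measured genes specific to that mating type, 1 (25%, against 0.973% of all genes) rose, *MF(ALPHA)2*, by 1.03 on the log2 scale. The median change of the 4 was 0.26. That call was lost without *top2ts* replicate 2 or wildtype replicate 1 (adjusted p up to 0.101 from limma).

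Most transcripts had a slightly lower signal in *top2ts* than in wildtype, while a much smaller set moved by 2-fold or more. Each array was scaled to the mean log2 signal of its spike-in probe sets, and the change of a gene is the *top2ts* minus wildtype difference in log2 signal. The median change of the 5449 genes was -0.21, with -0.10, -0.03 and -0.51 in pairs 1, 2 and 3, and 4504 genes (82.7%) were below 0. With limma's adjusted p below 0.05, 53 genes (0.973% of those tested) rose and 376 (6.90%) fell. Of these, 26 rose and 78 fell by 2-fold or more, led by *COS12* and *AIF1* among the rises and by *SPL2*, *PHO89*, *HXT7* and *PHO5* among the falls. The 3 arrays of *top2ts* all lay beyond those of wildtype for 43 of the genes that rose and 346 of those that fell. The summed signal of all genes was 89.4% ± 14.6 (SD, n = 3) of the wildtype mean in *top2ts*, where the wildtype arrays had an SD of 6.07%. Against the same-numbered wildtype arrays it was 96.8%, 93.2% and 77.3%, and an exact two-sided permutation test of 3 arrays against 3 gave p = 0.4, where 0.1 is the smallest value it can give. In bulk RNA, fewer transcribing cells and less RNA per cell cannot be told apart.

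The counts of falls depended on single arrays and on the scale more than the list of large changes did. Without *top2ts* replicate 3 there were 99 falls, without wildtype replicate 3 there were 126, without wildtype replicate 1 there were 138, without *top2ts* replicate 2 there were 181, and without wildtype replicate 2 there were 572. The number of rises was 31 without *top2ts* replicate 2, 35 without *top2ts* replicate 1 and 35 without wildtype replicate 1. The fit without the replicate block gave 39 rises and 206 falls. One of the spike-in RNAs, trp, had signals no higher than 17.1 in all its 6 probe sets, whereas the other spike-in probe sets were at 195.2 or more. Leaving trp out of the scale changed the median changes of the 3 pairs to -0.12, -0.30 and -0.24. The counts became 59 rises and 446 falls, of which 53 and 366 were those of the main scale. The summed signals became 95.6%, 77.1% and 93.2% of the same-numbered wildtype arrays, so that the lowest pair was 2 and no longer 3. With equal array medians 277 genes rose and 238 fell, all 53 of the first rises and 234 of the first falls among them. With the arrays scaled to their hybridization controls, which are added after extraction, the median change was 0.11, 34 genes rose and 21 fell, so that the direction of the common shift rests on the scale. *CIK1* and *PRM6* rose and *SPL2*, *PHO89*, *PHO5* and *HXT7* fell under every one of these settings.

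**Figure D1:**
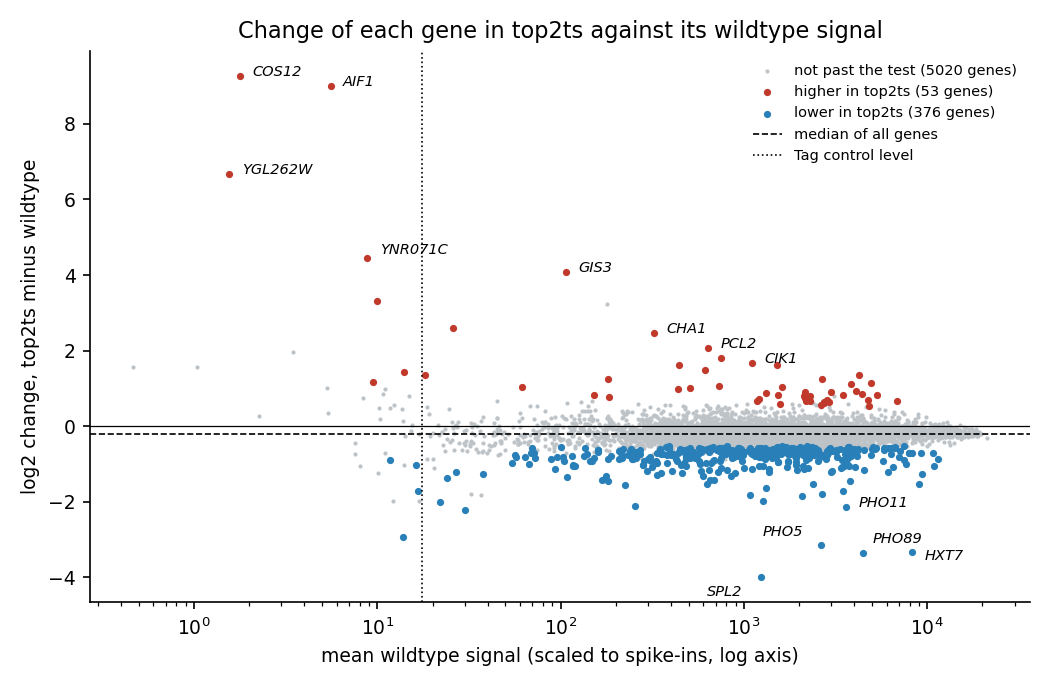
Each point is one of 5449 genes, with the mean wildtype signal on a log axis and the log2 change in *top2ts* relative to wildtype on the vertical axis. Red points (53) rose and blue points (376) fell at an adjusted p under 0.05. The dashed line is the median of all genes at -0.21, and the dotted line is the level of the Tag control probe sets at 17.6. The rises of *COS12*, *AIF1*, *YGL262W* and *YNR071C* start left of that line, and that of *GIS3* starts to its right. The falls of *SPL2*, *PHO89*, *HXT7* and *PHO5* start far to its right, and those of *BUD25* and *SAE3* start close to it.

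Genes of phosphate uptake and storage gave the largest falls of all. In yeast, the kinase Pho80p-Pho85p keeps the activator Pho4p out of the nucleus when phosphate is plentiful, and Pho4p with Pho2p turns on transporters, acid phosphatases and the vacuolar polyphosphate synthase when phosphate runs low. *SPL2* (YHR136C), which encodes an inhibitor of low-affinity phosphate transport, had 103, 65.0 and 58.2 in *top2ts* and 1491, 717 and 1503 in wildtype. All *top2ts* arrays lay below all wildtype arrays, and the log2 change was -4.0 ± 0.25 (SE; adjusted p = 1.21e-08 from limma). *PHO89* (YBR296C), for a sodium-coupled phosphate transporter, had 404, 531 and 368 in *top2ts* and 4473, 3732 and 5088 in wildtype, a change of -3.36 ± 0.19 (adjusted p = 4.19e-09). *PHO5* (YBR093C), for the main repressible acid phosphatase, had 382, 301 and 191 in *top2ts* and 3904, 1582 and 2392 in wildtype, a change of -3.13 ± 0.23 (adjusted p = 7.84e-08). The groups did not overlap for either gene. *PHO11* (YAR071W), for another acid phosphatase, had 870, 920 and 653 in *top2ts* and 4058, 2857 and 3841 in wildtype (-2.14, adjusted p = 6.21e-07). Its near-identical copy *PHO12* may share these probes, so that the signal may belong to either gene.

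The fall ran through much of the phosphate-starvation set, while the transcripts of its transcription factors and kinase did not pass the test. Of 16 measured members of the set, 11 (68.8%, against 6.90% of all genes) fell and 0 rose. Their median change was -0.81, against -0.21 for all genes. The polyphosphate synthase gene *VTC3* had 2722, 3427 and 1925 in *top2ts* and 6817, 4904 and 6649 in wildtype (-1.21, adjusted p = 0.000735), and its partner *VTC4* changed by -0.93. The high-affinity transporter gene *PHO84* had 4921, 6381 and 4541 in *top2ts* and 9877, 13261 and 9683 in wildtype (-1.05, adjusted p = 0.00440). *PHO81*, for the inhibitor of the Pho80p-Pho85p kinase, *PHM8*, *VTC2* and *VTC1* changed by between -0.81 and -0.72. The members that did not pass were *PHM6* (-0.68), *DDP1* (-0.52), *PHO8* for the vacuolar alkaline phosphatase (-0.36), *GIT1* (-0.31) and *GDE1* (0.33). Among the regulators, *PHO4* (-0.18), *PHO2* (-0.55), *PHO80* (0.07) and *PHO85* (-0.20) did not pass. *PHO2* was below wildtype on every *top2ts* array (adjusted p = 0.0598). Of 15 phosphate signalling and constitutive transport genes 2 (13.3%) fell, against 6.90% of all genes. They were *VIP1* (-0.80) and *PHO86*, needed for the exit of Pho84p from the endoplasmic reticulum (-0.75, adjusted p = 0.00622). *VIP1* lost its call without *top2ts* replicate 3, wildtype replicate 1 or wildtype replicate 3 (up to 0.0665). Neither fell with hybridization controls as the scale. Without *top2ts* replicate 3, or without wildtype replicate 3, 7 members of the phosphate-starvation set fell. *PHO84* was not past the threshold without the first of these arrays (adjusted p = 0.0551), and *PHO81* lost its call without that array, wildtype replicate 1 or wildtype replicate 3 (up to 0.0830). *PHM8* and *VTC2* lost theirs without any of these 3 arrays or *top2ts* replicate 2 (up to 0.293 and 0.159), and *VTC1* without *top2ts* replicate 2 or wildtype replicate 3 (up to 0.0608). With the arrays scaled to their hybridization controls 4 members fell.

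The acid phosphatase gene *PHO5* was low in all 3 mutants. Mean *PHO5* signals were 267 in *top1Δtop2ts*, 291 in *top2ts*, 246 in *top1Δ* and 2626 in wildtype. The *top2ts* minus *top1Δ* difference of *PHO5* was 0.23 on the log2 scale (adjusted p = 0.614 from limma). *SPL2* was lower in *top2ts* than in *top1Δ*, with means of 75.6 and 210 and a log2 difference of -1.47 (adjusted p = 0.00110), and *PHO89* by -0.66 (means of 434 and 684, adjusted p = 0.0350). *GDE1* was higher in *top2ts* than in *top1Δ* by 1.00 (adjusted p = 0.00321). Over all genes, 436 (8.0%) differed between *top2ts* and *top1Δ*, 316 of them higher and 120 lower in *top2ts*, and 276 differed without the replicate block.

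**Figure D2:**
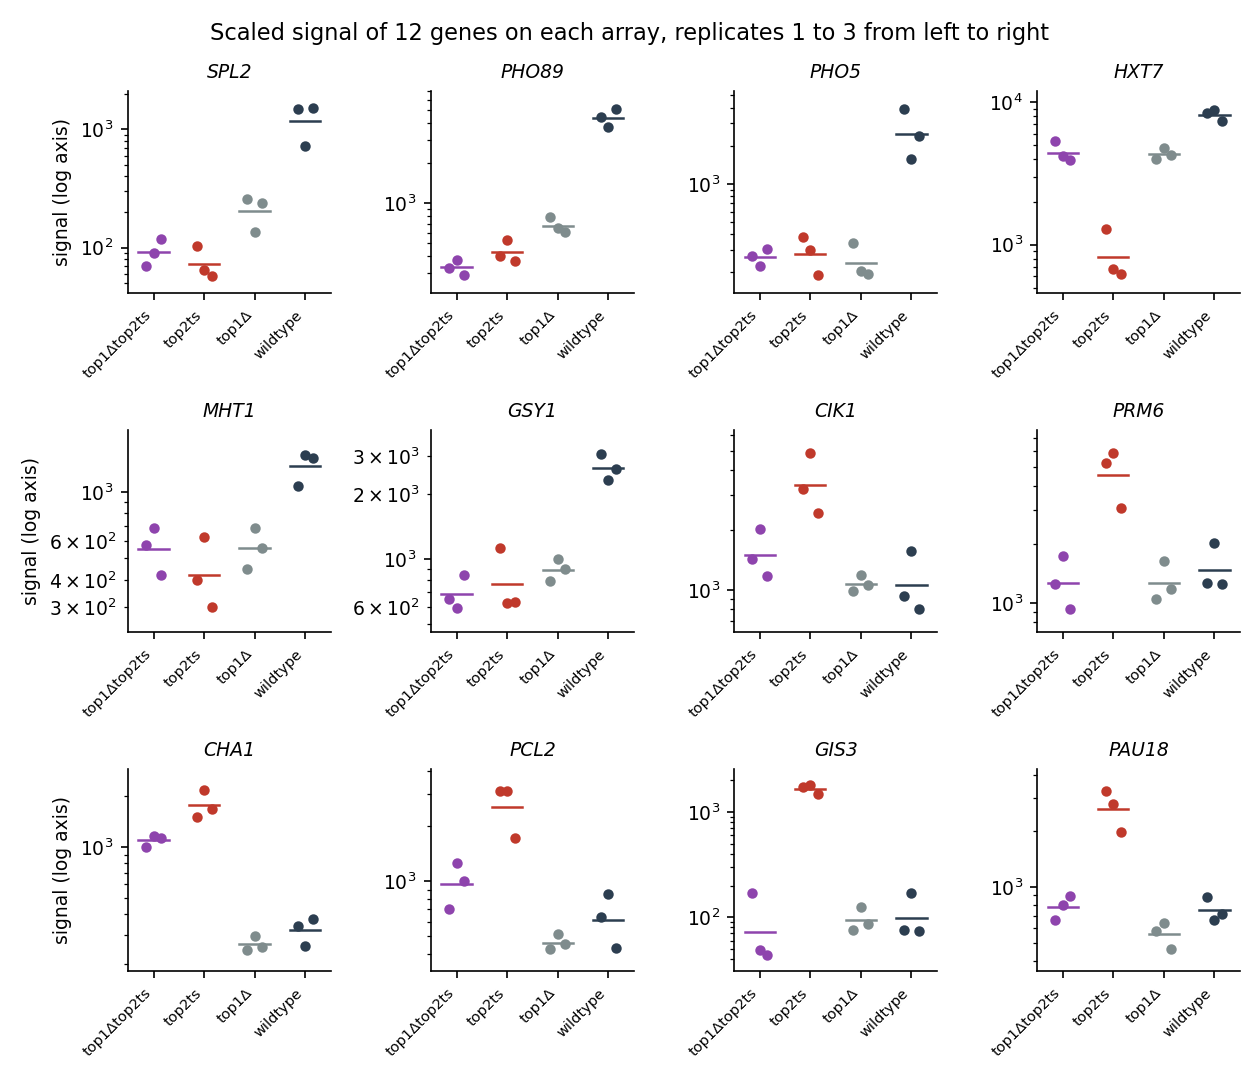
Scaled signal (log axis) of 12 genes on each array, 3 arrays per strain, with replicates 1 to 3 from left to right. The line is the mean of the log2 signals of a strain, whereas the means in the text are of linear signals. The strains are in the order *top1Δtop2ts*, *top2ts*, *top1Δ* and wildtype. *SPL2*, *PHO89*, *PHO5*, *HXT7*, *MHT1* and *GSY1* lie below wildtype on all 3 *top2ts* arrays. *CIK1*, *PRM6*, *CHA1*, *PCL2*, *GIS3* and *PAU18* lie above wildtype on all 3.

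Genes of mating and nuclear fusion rose in *top2ts*, although both strains had received the same pheromone. Pheromone binding to Ste2p starts a MAP kinase cascade that activates Ste12p, the transcription factor of the mating genes, and Far1p, which arrests the cycle in G1. *CIK1* (YMR198W), for a partner of the kinesin Kar3p in nuclear fusion, had 3201, 4854 and 2424 in *top2ts* and 930, 1565 and 806 in wildtype. The groups did not overlap and the change was 1.67 ± 0.17 (SE; adjusted p = 7.00e-06 from limma). *PRM6* (YML047C), a pheromone-regulated membrane protein gene, had 5208, 5903 and 3081 in *top2ts* and 1267, 2043 and 1255 in wildtype (1.62, adjusted p = 1.34e-05). *PRM4* had 9313, 12958 and 8071 in *top2ts* and 2860, 7019 and 2832 in wildtype (1.37, adjusted p = 0.000364). *FUS2*, for cell fusion, *KAR4*, for a transcription factor of nuclear fusion genes, and *ASG7*, for a regulator of pheromone signalling, also rose, by 1.26, 1.13 and 1.12, with all *top2ts* arrays above all wildtype arrays.

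In all, 16 of 32 pheromone response genes (50%, against 0.973% of all genes) rose and 1 (3.12%, against 6.90%) fell. Their median change was 0.54, against -0.21 for all genes. *FAR1* had 3828, 5580 and 2769 in *top2ts* and 1823, 3016 and 1657 in wildtype (0.90, adjusted p = 0.00445). *FUS1*, for a cell fusion protein, had 9298, 10044 and 7534 in *top2ts* and 3814, 8344 and 3873 in wildtype (0.84, adjusted p = 0.0140). Wildtype replicate 2 was the highest wildtype array for both and overlapped with the *top2ts* arrays. *STE12* rose by 0.60 (adjusted p = 0.0413). The receptor gene *STE2* (0.09), the agglutinin gene *AGA1* (-0.07), the adhesin gene *FIG2* (0.03), the MAP kinase gene *FUS3* (0.21) and *SST2*, for the protein that desensitizes the pathway (0.29), did not pass the test. The exception in direction was *PGU1*, for a secreted pectin-degrading enzyme that is also a target of filamentous growth, which had 149, 155 and 97.4 in *top2ts* and 310, 289 and 293 in wildtype (-1.18, adjusted p = 0.000253). *KSS1*, for the second MAP kinase of the pathway, fell too (-1.06, adjusted p = 0.00392; 0.0510 without *top2ts* replicate 3). Of 17 filamentous growth genes 6 (35.3%, against 6.90% of all genes) fell, *PGU1* and *KSS1* among them, and 1, *STE12*, rose (5.88%, against 0.973%). These falls numbered 1 without *top2ts* replicate 3, 3 without wildtype replicate 1 and 0 with hybridization controls as the scale. For 9 of the 32 pheromone response genes the 3 *top2ts* arrays lay above the 3 wildtype arrays. The count of rises among them was 9 without wildtype replicate 3, 10 without wildtype replicate 1 and 9 without the replicate block. *FUS1* lost its call without either of those wildtype arrays, *top2ts* replicate 1 or *top2ts* replicate 3 (adjusted p up to 0.136), and *STE12* without any array but wildtype replicate 2 (up to 0.211). With hybridization controls as the scale 8 of the pheromone response genes rose.

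*PCL2* (YDL127W), for a G1 cyclin of the Pho85p kinase that also responds to pheromone, gave one of the larger rises. It had 3114, 3133 and 1732 in *top2ts* and 637, 848 and 431 in wildtype, a change of 2.06 ± 0.21 (SE; adjusted p = 7.00e-06 from limma) with no overlap. It was the only one of 10 Pho85p cyclin genes that passed, and the related *PCL1* (0.05) did not. *GIC2*, for an effector of the polarity GTPase Cdc42p, rose by 0.89 (adjusted p = 0.00320), with 2453, 2956 and 1896 in *top2ts* and 1166, 1737 and 1076 in wildtype. They were the only 2 of 43 G1 to S genes that rose (4.65%, against 0.973% of all genes). Another 4 fell (9.3%, against 6.90% of all genes). There was 1 fall without *top2ts* replicate 3 or wildtype replicate 3. The falls numbered 2 without *top2ts* replicate 2, wildtype replicate 1 or the replicate block, and 7 without *top2ts* replicate 1 or wildtype replicate 2. *TOS4*, a target of the G1 to S factors, had 248, 142 and 150 in *top2ts* and 333, 336 and 323 in wildtype (-0.93, adjusted p = 0.00414), and the cyclin gene *CLN2* did not pass (-0.47). The G2 to M genes, which should be low in G1, were lower still in *top2ts*, with a median change of -0.63. Of 14, 6 (42.9%, against 6.90% of all genes) fell and 0 rose. *SWI5*, for the activator of late mitotic and early G1 genes, had 223, 128 and 107 in *top2ts* and 483, 288 and 294 in wildtype (-1.25, adjusted p = 0.000520). The kinase gene *KIN3* (-0.99) and the sirtuin gene *HST3* (-0.92) fell, and the mitotic cyclin gene *CLB2* had 749, 386 and 419 in *top2ts* and 836, 887 and 641 in wildtype (-0.66, adjusted p = 0.0966). The number of fallen G2 to M genes was 3 without *top2ts* replicate 3 and 3 without wildtype replicate 1, where *CHS2*, for a septum chitin synthase (-1.12), lost its call with adjusted p up to 0.0896, and it was 4 without *top2ts* replicate 2 or wildtype replicate 3. With hybridization controls as the scale none of the G1 to S or G2 to M genes fell. The share of cells in each phase of the cycle was not analysed here, and its part in these values was not tested.

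Genes of sulfur uptake and methionine synthesis fell together. Of 31 measured, 16 (51.6%, against 6.90% of all genes) fell and 0 rose, with a median change of -0.69. These genes are controlled by Met4p, an activator that is brought to DNA in part by Cbf1p, and they supply the cell with sulfide, cysteine, methionine and S-adenosylmethionine. *MHT1* (YLL062C), for an S-methylmethionine methyltransferase, had 400, 623 and 301 in *top2ts* and 1063, 1478 and 1422 in wildtype, a change of -1.63 ± 0.20 (SE; adjusted p = 3.32e-05 from limma) with no overlap. Its neighbour *MMP1*, for the S-methylmethionine permease, had 1125, 1762 and 1127 in *top2ts* and 2420, 3490 and 3117 in wildtype (-1.19, adjusted p = 0.000775). *MET3*, for the first enzyme of sulfate assimilation, had 1273, 1805 and 890 in *top2ts* and 2598, 3586 and 2762 in wildtype (-1.22, adjusted p = 0.000183). The next steps were lower as well, *MET14* for the kinase that follows by -1.09 and *MET5* for a subunit of sulfite reductase by -1.16.

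The 2 sulfate permease genes parted. *SUL1* had 228, 286 and 196 in *top2ts* and 645, 401 and 747 in wildtype (-1.31, adjusted p = 0.00131), while *SUL2* had 349, 429 and 290 in *top2ts* and 242, 353 and 331 in wildtype (0.21, adjusted p = 0.475). *SUL1* was below wildtype on every *top2ts* array, and the arrays of *SUL2* overlapped. *CBF1* (YJR060W) itself fell, with 277, 302 and 195 in *top2ts* and 694, 675 and 690 in wildtype (-1.44, adjusted p = 5.09e-05), whereas *MET4* (-0.33) and *MET16*, for the reductase between *MET14* and *MET5* (-0.09), did not pass. The methionine permease gene *MUP1* fell by 0.83 on the log2 scale (adjusted p = 0.00395). The number of fallen genes was 11 without *top2ts* replicate 3 or wildtype replicate 3 and 13 to 16 without any one of the other arrays. With hybridization controls as the scale *MHT1* was the only one that fell. Some of these genes were higher in *top2ts* than in *top1Δ*, where *SUL1* had a mean of 131 (log2 difference 0.85, adjusted p = 0.0230), *MET3* of 846 (0.60, adjusted p = 0.0350) and *SUL2* of 173 (1.04, adjusted p = 0.00111). *CBF1* went the other way, with means of 258 in *top2ts* and 599.7 in *top1Δ* (-1.23, adjusted p = 0.000232).

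The hexose transporter gene *HXT7* (YDR342C) was the most strongly affected gene of carbon metabolism. It had 1300, 672 and 624 in *top2ts* and 8363, 8854 and 7450 in wildtype, a change of -3.33 ± 0.21 (SE; adjusted p = 1.21e-08 from limma), and the groups were far apart. *HXT7* encodes a high-affinity transporter that is made when glucose is low, and its near-identical neighbour *HXT6* may share the probes. Its signal averaged 4489 in *top1Δtop2ts*, 866 in *top2ts*, 4355 in *top1Δ* and 8222 in wildtype, and the *top2ts* minus *top1Δ* difference was -2.41 (adjusted p = 7.76e-07). The change on Top2 inactivation differed between the *top1Δ* and *TOP1* backgrounds by 3.36 (adjusted p = 4.88e-07), the value being the change in the *top1Δ* background minus that in the *TOP1* background. Over all genes 1178 (21.6%) differed in this way. Of 24 hexose transporter and glucose sensing genes, 4 (16.7%) fell and 1 (4.17%) rose, against 6.90% and 0.973% of all genes. *HXT7* was the 1 fall left without *top2ts* replicate 2, *top2ts* replicate 3, wildtype replicate 1 or wildtype replicate 3. Without *top2ts* replicate 1, 6 fell, and 2 fell without the replicate block. The rise was that of *HXT17*, at the chromosome end described later, and was not seen in the brighter of its 2 probe sets. With hybridization controls as the scale 1 of the list fell.

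Other genes that glucose represses or that store carbon were lower too, by smaller steps. Of 30 glucose-repressed genes, 11 (36.7%, against 6.90% of all genes) fell and 0 rose, with a median of -0.50. The invertase gene *SUC2* had 965, 890 and 751 in *top2ts* and 2106, 1781 and 1934 in wildtype (-1.16, adjusted p = 0.000318), and the alcohol dehydrogenase gene *ADH2* had 481, 304 and 328 in *top2ts* and 871, 759 and 795 in wildtype (-1.15, adjusted p = 0.000735). No array of one strain reached those of the other for these genes. In *top1Δ* the means were 1102 (*SUC2*) and 265 (*ADH2*), and neither differed past the threshold from *top2ts* (adjusted p = 0.243 and 0.133 from limma). *HXK1*, for a hexokinase, changed by -1.0 (adjusted p = 0.00150) and *FBP1*, for an enzyme of gluconeogenesis, by -0.92 (adjusted p = 0.00239). *ADR1*, for the activator of *ADH2* and of peroxisomal genes, changed by -1.12, and *POT1*, for the peroxisomal thiolase, by -1.01. Both lost their calls without *top2ts* replicate 3 (adjusted p = 0.0510 and 0.0617). The list held 4 fallen genes without *top2ts* replicate 3, 6 without wildtype replicate 1 or wildtype replicate 3, and 7 without *top2ts* replicate 2. With hybridization controls as the scale 0 fell and the median was -0.18.

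Genes of glycogen and trehalose metabolism fell in part. *GSY1* (YFR015C), for a glycogen synthase, had 1123, 627 and 635 in *top2ts* and 3061, 2319 and 2603 in wildtype (-1.79, adjusted p = 2.94e-05). *GPH1*, for glycogen phosphorylase, had 1229, 600 and 769 in *top2ts* and 2841, 2053 and 2287 in wildtype (-1.52, adjusted p = 0.000119), and *GLC3*, for the branching enzyme, changed by -1.12 (adjusted p = 0.00111). All 3 genes were lower on every *top2ts* array than on any wildtype array. Their means in *top1Δ* were 897 (*GSY1*), 714 (*GPH1*) and 1326 (*GLC3*). None differed past the threshold between *top2ts* and *top1Δ* (adjusted p = 0.591, 0.565 and 0.268 from limma). The trehalose synthesis genes *TPS1* and *TPS2* changed by -0.56 and -0.73 (adjusted p = 0.0412 and 0.0143), and both lost their calls without *top2ts* replicate 2, *top2ts* replicate 3, wildtype replicate 1 or wildtype replicate 3 (up to 0.206 and 0.0953). Of 17 trehalose and glycogen genes 7 (41.2%, against 6.90% of all genes) fell and 0 rose, with a median of -0.56. The count was 3 without *top2ts* replicate 3, wildtype replicate 1 or wildtype replicate 3 and 4 without *top2ts* replicate 2, and 1 gene fell with hybridization controls as the scale.

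The largest rises lay in 2 runs of neighbouring genes near chromosome ends. At the left end of chromosome VII, *COS12* (YGL263W), the outermost gene and a member of a family found near telomeres, had 610, 732 and 358 in *top2ts* and 0.165, 0.977 and 4.22 in wildtype. The wildtype signals were under the Tag control level of 17.6, the 95th percentile of 17 control probe sets that serves here as background, so the rise is at least 30.8-fold (adjusted p = 3.28e-07 from limma). The next gene, *YGL262W*, had 164, 126 and 120 in *top2ts* and 2.88, 0.977 and 0.826 in wildtype, at least 7.67-fold higher (adjusted p = 5.47e-06). *YPS5* (YGL259W), related to the yapsin proteases, had 171, 185 and 121 in *top2ts* and 27.1, 25.1 and 25.0 in wildtype, a change of 2.61 (adjusted p = 5.29e-06). *YGL258W-A* followed with 344, 294 and 192 in *top2ts* and 160, 147 and 150 in wildtype (0.82, adjusted p = 0.0228), a call that was lost without *top2ts* replicate 1, *top2ts* replicate 2, wildtype replicate 1 or wildtype replicate 3 (adjusted p up to 0.113). *VEL1*, the next measured gene, had 52.1, 40.3 and 27.3 in *top2ts* and 45.8, 46.3 and 37.9 in wildtype (-0.16). The 2 genes between *YGL262W* and *YPS5* were not analysed here.

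At the right end of chromosome XIV the run lay a few genes inside the outermost. *AIF1* (YNR074C), for a mitochondrial protein of cell death, had 1424, 1522 and 909 in *top2ts* and 13.4, 2.93 and 0.367 in wildtype, at least 71.1-fold higher (adjusted p = 3.19e-05 from limma). *YNR071C*, for a putative sugar epimerase, had 234, 200 and 136 in *top2ts* and between 5.87 and 10.6 in wildtype, at least 10.5-fold higher (adjusted p = 1.21e-08). *PDR18*, for a transporter of the drug resistance family, had 98.6, 101 and 82.9 in *top2ts* and 13.9, 8.65 and 7.16 in wildtype, at least 5.32-fold higher (adjusted p = 0.000502). In wildtype all 3 genes were under the Tag level on every array, and in *top2ts* all were above it. *HXT17*, between *AIF1* and *YNR071C*, had 45.4, 39.3 and 23.4 in *top2ts* and 10.4, 22.2 and 9.39 in wildtype (1.42, adjusted p = 0.0215), and lost its call without wildtype replicate 1 or any *top2ts* array (adjusted p up to 0.139). It is the mean of 2 probe sets that disagree, and the brighter one changed by 0.15 (adjusted p = 0.806). The call was also lost with a robust prior (adjusted p = 0.176). *COS10*, on the outer side, had 403, 415 and 336 in *top2ts* and 518, 776 and 509 in wildtype (-0.62, adjusted p = 0.0479, and up to 0.214 without any array but *top2ts* replicate 1), and *BSC5*, on the inner side, did not pass (-0.52). *YNR061C*, further in, rose by 1.48, with 2078, 1835 and 1266 in *top2ts* and 650, 555 and 622 in wildtype (adjusted p = 0.000175).

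The 5 genes of these runs that were under the Tag level on every wildtype array and above it on every *top2ts* array were, on average, also under it in *top1Δtop2ts*, which carries the same *top2-1* allele, and in *top1Δ*. *COS12* averaged 0.743 in *top1Δtop2ts* and 3.28 in *top1Δ*, *AIF1* 0.894 and 3.59, *YGL262W* 2.12 and 0.914, *YNR071C* 6.38 and 9.76, and *PDR18* 4.54 and 5.01. *YPS5* averaged 18.5 in *top1Δtop2ts* and 15.5 in *top1Δ*, close to the Tag level of 17.6. The change of *AIF1* on Top2 inactivation differed between the backgrounds (adjusted p = 0.000217), as did that of *COS12* (adjusted p = 9.81e-07). The genomes of the strains were not analysed here, and a difference in the chromosome ends of the *top2ts* strain cannot be told apart from an effect of its allele.

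**Figure D3:**
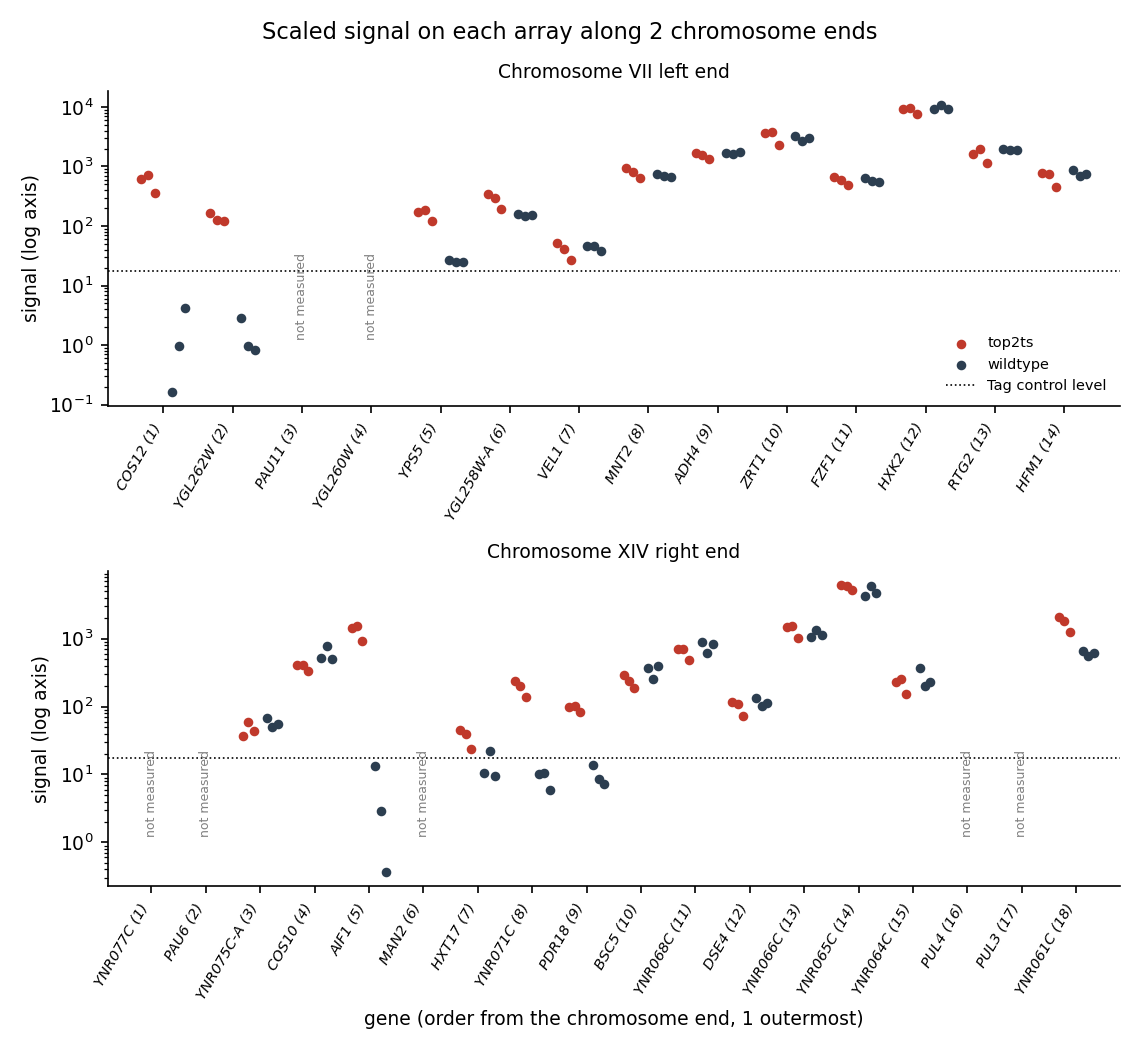
Scaled signal (log axis) of each *top2ts* array (red) and wildtype array (dark blue) for genes in order from the left end of chromosome VII and the right end of chromosome XIV, 1 being the outermost, with the Tag control level of 17.6 as a dotted line. *COS12*, *YGL262W*, *AIF1*, *YNR071C* and *PDR18* lie above the line in *top2ts* and below it in wildtype, and *VEL1* and *BSC5* overlap between the strains.

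Several genes assigned to places near the ends of chromosome I fell. The signal of *PHO11* may belong to *PHO12*. Whether the probes of *YAR066W* and *YAR068W* take up copies at other chromosome ends was not tested, so the place of these falls is not settled. At the right end of chromosome I the 3 outermost genes fell together, *PHO11* as given above, *YAR068W* with 492, 270 and 246 in *top2ts* and 1288, 1120 and 1395 in wildtype (-1.98, adjusted p = 4.63e-06 from limma), and *YAR066W* with 74.4, 71.0 and 53.9 in *top2ts* and 165, 195 and 184 in wildtype (-1.46, adjusted p = 4.21e-05). *SEO1*, for a permease near the left end of the same chromosome, had 323, 408 and 204 in *top2ts* and 872, 1249 and 1107 in wildtype (-1.83, adjusted p = 6.24e-06). None of these arrays overlapped between the strains. In *top1Δ*, *SEO1* averaged 244 and *PHO11* 943, not different past the threshold from *top2ts* (adjusted p = 0.334 and 0.560 from limma). *YAR068W* and *YAR066W* averaged 1110 and 158 there and were lower in *top2ts* (adjusted p = 1.29e-05 and 0.000184 from limma). Of 235 measured genes among the 10 outermost of a chromosome end, 14 (5.96%) rose and 39 (16.6%) fell, against 53 and 375 of all 5446 genes with a known place. These ends held 26.4% of the genes that rose and 4.32% of all genes. The 14 rises include the 4 genes of the chromosome VII run and the 4 of the chromosome XIV run described above. They are thus not 14 separate places, and the share does not show a general rise at chromosome ends. Runs of neighbouring measured genes with the same call held 12 of the 53 genes that rose, in 4 runs. Such runs held 80 of the 375 that fell, in 37 runs of up to 3 genes. Examples are *MHT1* with *MMP1*, *SUC2* with *POT1* and *XBP1* with *SGA1*. How many runs these numbers of genes would form if placed at random was not computed, so the counts do not show clustering.

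*CHA1* and *GIS3* were also among the 12 largest rises. *CHA1* (YCL064C), for the catabolic deaminase of serine and threonine, had 1514, 2190 and 1683 in *top2ts* and 337, 258 and 371 in wildtype, a change of 2.48 ± 0.18 (SE; adjusted p = 7.84e-08 from limma). *GIS3* (YLR094C), a gene of unknown function, had 1747, 1798 and 1482 in *top2ts* and 75.7, 172 and 73.7 in wildtype (4.08 ± 0.36, adjusted p = 1.10e-06). Neither overlapped. *CHA1* was also high in *top1Δtop2ts*, with a mean of 1098 against 264 in *top1Δ*, and its change did not differ past the threshold between the backgrounds (-0.42, adjusted p = 0.255), whereas *GIS3* averaged 88.0 in *top1Δtop2ts* and 95.5 in *top1Δ* (difference between backgrounds -4.46, adjusted p = 1.15e-05). *CHA4*, for the activator of *CHA1*, fell by 0.95 on the log2 scale (adjusted p = 0.00897, up to 0.0925 without *top2ts* replicate 3 or wildtype replicate 3).

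Seripauperin genes, a large family of cell wall proteins with many near-identical copies, moved both ways. *PAU18* had 3267, 2798 and 1971 in *top2ts* and 884, 660 and 713 in wildtype (1.81, adjusted p = 1.29e-05 from limma), and *PAU4* had 1677, 1326 and 1077 in *top2ts* and 506, 376 and 437 in wildtype (1.62, adjusted p = 6.72e-05). *PAU9* went the other way, with 1255, 1064 and 883 in *top2ts* and 3994, 3410 and 3063 in wildtype (-1.71, adjusted p = 3.54e-05). The probes of one copy may take up transcripts of another, which leaves the single members uncertain. Of 19 genes of the PAU, DAN and TIR families 2 (10.5%) rose and 5 (26.3%) fell, against 0.973% and 6.90% of all genes. There was 1 fall without *top2ts* replicate 3, 3 without the replicate block and 1 with hybridization controls as the scale. *DAN1*, 1 of the 5, was at or near the Tag level in both strains and lost its call without any array but wildtype replicate 3 (adjusted p up to 0.243).

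*AZR1*, *PLB2*, *BUD25* and *SAE3* were also among the 12 largest falls. *AZR1* (YGR224W), for a drug transporter of the plasma membrane, had 62.1, 73.1 and 41.0 in *top2ts* and 209, 341 and 214 in wildtype (-2.12, adjusted p = 1.72e-06 from limma). *PLB2*, for a phospholipase B, had 788, 488 and 464 in *top2ts* and 2596, 1578 and 2068 in wildtype (-1.86, adjusted p = 2.43e-05). *BUD25* had 16.5, 1.67 and 8.25 in *top2ts*, all under the Tag level, and 45.1, 27.9 and 17.8 in wildtype, at least 1.60-fold lower in *top2ts* (adjusted p = 0.00774). *SAE3*, for a meiotic recombination protein, was at least 1.17-fold lower (adjusted p = 0.0265, up to 0.131 without *top2ts* replicate 2 or wildtype replicate 2). *SER3*, for the first enzyme of serine synthesis, had 4732, 4751 and 2439 in *top2ts* and 9065, 11588 and 7300 in wildtype (-1.27, adjusted p = 0.000729), and *LYS1*, for the last enzyme of lysine synthesis, rose (0.82, adjusted p = 0.00489). Of 45 amino acid synthesis genes these 2 passed, 1 fallen (2.22%, against 6.90% of all genes) and 1 risen (2.22%, against 0.973%). With equal array medians 11 of them rose, where 277 of all 5449 genes rose. With quantile normalization 7 rose, where 256 of all genes rose.

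Genes of nitrogen use and of entry into meiosis fell in part. *PUT1* (YLR142W), for proline oxidase, had 1605, 1281 and 1273 in *top2ts* and 3830, 3874 and 3685 in wildtype (-1.46, adjusted p = 3.19e-05 from limma), and *DAL80*, for a repressor of nitrogen catabolic genes, had 182, 188 and 206 in *top2ts* and 378, 344 and 419 in wildtype (-0.99, adjusted p = 0.000569). Of 37 nitrogen genes 7 (18.9%) fell, against 6.90% of all genes, and 1, *CHA1*, rose. The falls numbered 2 without *top2ts* replicate 3, 3 without wildtype replicate 3 and 11 without wildtype replicate 2. *IME1*, for the activator that starts meiosis, had 473, 313 and 268 in *top2ts* and 911, 760 and 879 in wildtype (-1.31, adjusted p = 0.000213). *SGA1*, a sporulation gene for a glucoamylase, had 330, 201 and 209 in *top2ts* and 681, 598 and 672 in wildtype (-1.43, adjusted p = 6.00e-05). Both were lower on every *top2ts* array. In *top1Δ* the means were 368 (*IME1*) and 309 (*SGA1*), and neither differed past the threshold from *top2ts* (adjusted p = 0.810 and 0.243 from limma). *IME4*, for an RNA methyltransferase of meiosis, rose (1.25, adjusted p = 0.0148), but its replicate 2 array in *top2ts* was at 1051 against 268 and 281 on the others, and the call was lost without that array (adjusted p = 0.0795). Of 43 meiosis and sporulation genes 7 (16.3%, against 6.90% of all genes) fell and 1 rose. There were 2 falls without *top2ts* replicate 3 and 3 without wildtype replicate 1 or wildtype replicate 3. Without *top2ts* replicate 2 or without the replicate block there were 4. With hybridization controls as the scale none of the nitrogen or meiosis genes fell. In copper uptake, the transporter gene *CTR1* fell by 0.90 on the log2 scale (adjusted p = 0.00772, up to 0.0733 without *top2ts* replicate 2 or wildtype replicate 3).

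Stress genes showed no common rise. Of 29 heat shock proteins and chaperones 6 (20.7%) fell and 0 rose, with a median of -0.21, equal to that of all genes. Of 24 general stress genes 6 (25%) fell and 0 rose. Over all genes 6.90% fell. *HSP30*, for a membrane heat shock protein, had 257, 106 and 82.4 in *top2ts* and 480, 227 and 301 in wildtype (-1.29, adjusted p = 0.00292 from limma), with *top2ts* replicate 1 inside the wildtype range. *SSC1*, for the mitochondrial Hsp70 protein, had 4400, 4439 and 3299 in *top2ts* and 7008, 8015 and 7296 in wildtype (-0.89, adjusted p = 0.00231). *XBP1*, for a stress-induced repressor, changed by -1.06 (adjusted p = 0.000735), and *HSP12* had 7242, 3066 and 5531 in *top2ts* and 4024, 1604 and 3717 in wildtype, higher on each array than on its same-numbered wildtype array but not past the threshold (0.79, adjusted p = 0.0576). The fallen heat shock genes numbered 2 without *top2ts* replicate 3, without wildtype replicate 3 or without the replicate block and 3 without wildtype replicate 1. The fallen general stress genes numbered 2 without *top2ts* replicate 3, wildtype replicate 1 or wildtype replicate 3 and 3 without *top2ts* replicate 2 or without the replicate block. None of either list fell with hybridization controls as the scale.

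The genes of the basic machinery of growth moved little. Of 129 ribosomal protein genes 0 passed the test in either direction by limma, with a median change of -0.16, and *RPL3* had 16682, 17659 and 15631 in *top2ts* and 16716, 24556 and 16551 in wildtype (-0.19). At an unadjusted p under 0.05, 1 of them was lower. None of 31 RNA polymerase subunit genes (median -0.19), 34 proteasome genes (0.04), 10 histone genes (0.02) or 15 condensin and cohesin genes (-0.19) passed by limma, where an unadjusted p under 0.05 would give 4, 0, 2 and 3 genes. With equal array medians 8 of the proteasome genes, 2 of the polymerase genes and 2 of the histone genes rose, where 277 of all 5449 genes rose. Examples are *RPA190*, for the largest subunit of RNA polymerase I (-0.23), *RPN1*, for a proteasome subunit (0.05), the histone genes *HTA1* (0.01) and *HHT2* (0.19), and the condensin genes *SMC2* (-0.26) and *YCS4* (-0.50). *ACT1* for actin had 14796, 14652 and 14814 in *top2ts* and 15270, 22458 and 14436 in wildtype (-0.21, adjusted p = 0.446), and the other genes that the study used for normalization or as references, *TDH1* (0.08), *ESC1* (0.06) and *GRE2* (-0.12), did not pass. Of 72 mitochondrial ribosomal protein genes 8 (11.1%) fell, against 6.90% of all genes, with a median of -0.37, *MRP4* by 0.83 on the log2 scale (adjusted p = 0.00414). That count was 1 without *top2ts* replicate 2, *top2ts* replicate 3, wildtype replicate 1 or wildtype replicate 3, 18 without wildtype replicate 2, 2 without the replicate block and 0 with hybridization controls as the scale. Among the other topoisomerases, *TOP3* had 206, 153 and 170 in *top2ts* and 286, 230 and 295 in wildtype (-0.62, adjusted p = 0.0424) and lost its call without *top2ts* replicate 2, *top2ts* replicate 3, wildtype replicate 1 or wildtype replicate 3 (adjusted p up to 0.189).

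**Figure D4:**
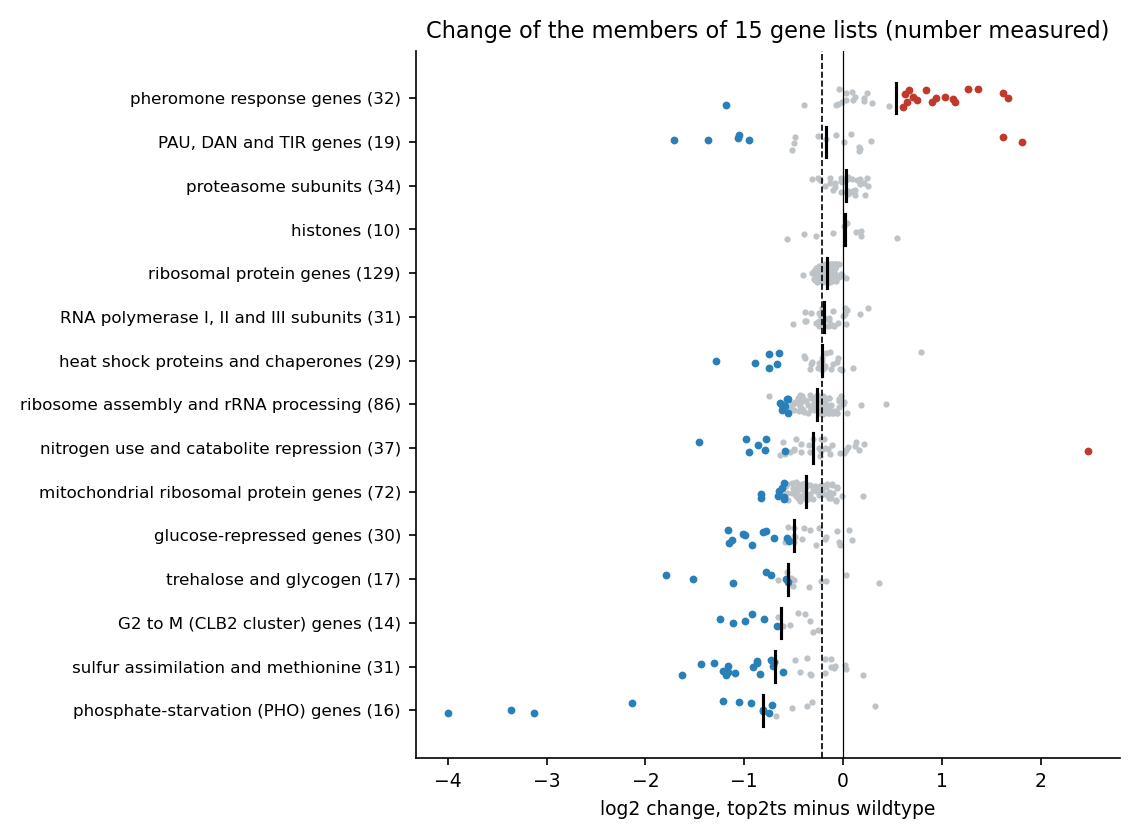
Log2 change in *top2ts* relative to wildtype for every measured member of 15 gene lists, with the number measured in brackets. Red points rose and blue points fell at an adjusted p under 0.05, grey points did not pass, black bars are list medians, and the dashed line is the median of all genes at -0.21. The pheromone list has its median at 0.54 and the phosphate list at -0.81, while the 129 ribosomal protein genes cluster around -0.16.

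The change varied a little with coding length and hardly with abundance. In 5 groups of genes from short to long, with median coding lengths of 453, 861, 1236, 1731 and 2820 nucleotides, the median log2 change was -0.14, -0.17, -0.21, -0.26 and -0.27. Across the 5449 genes, which share their arrays and are not independent, Pearson's correlation with log10 length was -0.11 and Spearman's -0.20. The groups by wildtype signal had medians between -0.23 and -0.17, and the least abundant group had the largest shares of rises (1.65%) and falls (9.92%). Of the frames within the ribosomal DNA, *YLR154C-H* had 1621, 1298 and 957 in *top2ts* and 73.0, 374 and 89.5 in wildtype (3.23, adjusted p = 0.0588 from limma), and *RRT15* had 359, 330 and 259 in *top2ts* and 185, 194 and 171 in wildtype (0.77, adjusted p = 0.0187, up to 0.107 without any array but wildtype replicate 2). 25S rRNA, by its own probe set, had 9512, 4372 and 239 in *top2ts* and 11189, 110 and 4887 in wildtype, so that its signal differed widely between arrays of one strain. Its part in the values of these frames was not tested.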

How the data were processed

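Polyadenylated RNA of 12 cultures was measured on Affymetrix Yeast Genome 2.0 arrays. Each probe set has 1 deposited linear intensity per array, which the authors made with MAS5 per the labels. The platform's annotation gave exactly 1 yeast gene for 5498 of 10928 probe sets, which were averaged on the log2 scale into 5449 genes, named after assembly R64. Each array was scaled to the mean log2 signal of its 42 poly-A spike-in probe sets. The 4 gene values at 0 were then set to the smallest positive scaled value, and dim genes were kept. Over the *top2ts* and wildtype arrays the scaling factors ran from 0.764 to 1.67. Over all arrays, correlations ran from 0.904 to 0.992, and the number of arrays limits the precision.

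limma 3.58.1 (R 4.3.3) was fitted to all 12 arrays with the strain and the replicate number as a block (6 residual degrees of freedom), two-sided, with Benjamini-Hochberg adjustment over all genes at 0.05. Same-numbered arrays were paired because the methods describe 3 independent sets of experiments, although no label ties a number to a set. Deviations of same-numbered *top2ts* and wildtype arrays correlated at 0.44, 0.12 and 0.00327, and 10 of 18 such pairs over all strains were above 0.1. Summed signals were compared by an exact permutation test. A gene with a *top2ts* or wildtype mean under the Tag control level is given as an at-least fold against that level. The exceptions above were *HXT17*, at least 1.82-fold higher in *top2ts*, and *DAN1*, at least 1.30-fold lower. The fit was tested on simulated data. Alternatives were other scales, no block, fewer arrays, other priors, filters and thresholds. No sequence of promoters or proteins was used here, and a planned description of promoter motifs was not run.

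The gene lists, members and tests were chosen with earlier results of these data known. Named genes were *TOP2* and *TOP1*, the 12 largest rises and falls past the test with the same sign in 3 pairs and a signal above the Tag level in the brighter strain, up to 4 passing members of each of 49 lists (2 where none passed), and the housekeeping genes. Other genes were named after their values were seen.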

Additional observations from a re-analysis of the deposited data

Results flagged for a closer look

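The change on Top2 inactivation was measured in 2 backgrounds, and limma tested their difference, the log2 change of *top1Δtop2ts* relative to *top1Δ* minus that of *top2ts* relative to wildtype. It passed the adjusted threshold for 1178 of 5449 genes (21.6%), and the named genes below were set apart by that test. The 2 changes share no array. A value does not by itself tell a gene already low in *top1Δ* from one that rose in *top1Δtop2ts*. The change in the *top1Δ* background was 0.15 for *PHO5*, which averaged 246 in *top1Δ* and 2626 in wildtype. It was 3.01 for *POT1* and 4.38 for *PGU1*.

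Chromosome-end genes that rose in *top2ts* had values of -11.51 (*COS12*), -5.72 (*YGL262W*), -2.44 (*YPS5*), -9.90 (*AIF1*), -5.35 (*YNR071C*), -3.47 (*PDR18*), -1.52 (*HXT17*) and -1.83 (*YNR061C*). In *COS12*, *YGL262W*, *AIF1*, *YNR071C*, *PDR18* and *HXT17* the mean wildtype signal, for *HXT17* over 2 probe sets that disagree, lay under the Tag level, as did the mean *top2ts* signal in *BUD25*, *SAE3* and *DAN1* below, so these sizes depend on background signals. *GIS3* had -4.46, and in the ribosomal DNA *YLR154C-H* had -5.70 and *RRT15* -2.41. Genes near chromosome ends that fell in *top2ts* had 2.06 (*SEO1*), 2.04 (*YAR066W*), 2.29 (*YAR068W*), 1.72 (*PHO11*) and 1.49 (*PAU9*), and *BSC5* had 1.73. *PAU18* had -1.33.

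Among phosphate genes the values were 3.29 (*PHO5*), 2.85 (*SPL2*), 2.31 (*PHO89*), -0.91 (*PHO84*), -1.01 (*PHM8*), -0.88 (*GDE1*), 0.87 (*GIT1*) and -0.85 (*PHO80*). Pheromone and G1 genes had -1.62 (*PRM6*), -1.19 (*CIK1*), -1.18 (*FUS2*), -0.77 (*KAR4*), -0.66 (*SST2*), -1.0 (*PCL2*), -4.42 (*PCL1*), -1.22 (*CLN2*), -1.70 (*TOS4*), 1.79 (*KSS1*), 5.56 (*PGU1*) and 1.10 (*STE3*). The largest of these, that of *PGU1*, sets a mean of 2993 in *top1Δtop2ts* and 143 in *top1Δ* beside 134 in *top2ts* and 297 in wildtype.

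Carbon genes had 3.36 (*HXT7*), 2.36 (*SUC2*), 1.55 (*ADH2*), 1.43 (*ADR1*), 4.02 (*POT1*), 1.55 (*HXK1*), 2.30 (*FBP1*), 1.42 (*GSY1*), 1.61 (*GPH1*) and 0.87 (*GLC3*). Sulfur genes had 1.62 (*MHT1*), 0.97 (*MMP1*), 1.29 (*CBF1*), 1.04 (*MUP1*) and -1.20 (*MET16*). The remaining values were 2.50 (*AZR1*), 1.23 (*PLB2*), 2.89 (*BUD25*), 3.27 (*SAE3*), 1.67 (*SGA1*), 1.60 (*HSP30*), 0.85 (*XBP1*), 7.09 (*DAN1*), -1.05 (*CLB2*), -1.45 (*HTA1*), -1.85 (*HHT2*), -0.79 (*YCS4*), -0.72 (*RPL3*) and 1.39 (*GRE2*).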

How the results depend on the processing

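Of 137 named genes past the threshold, 29 stayed past it under all 21 settings run, and no named call was reversed. With equal array medians 277 genes rose and 238 fell, the median change was 0.022 and the summed signal 104% of wildtype, 1909 genes differed between backgrounds and 1254 between *top2ts* and *top1Δ*. Quantile normalization gave 256 rises. Both settings remove a common shift by construction. With hybridization controls 34 genes rose, 21 fell, the median was 0.11 and the sum 109%, and 101 of the named calls were lost, the cause of which was not tested. Without the replicate block there were 39 rises, 206 falls and 276 genes that differed between *top2ts* and *top1Δ*, and 31 named calls were lost. An adjusted p under 0.01 left 29 rises and 125 falls, and a 2-fold limit 26 and 78. With arrays left out, singly or by replicate number, the rises ran from 31 to 62, the falls from 99 to 572, the median from -0.31 to -0.07 and the sum from 84.7% to 97.8%. By replicate number, 619 to 694 genes differed between backgrounds and 224 to 399 between *top2ts* and *top1Δ*. Deposited signals, the median of the spike-ins, scaling without trp (for the differences between backgrounds, those from *top1Δ* and the gene lists an alternative chosen after seeing the data), an intensity trend, a robust prior, the brightest probe set, the genes above the Tag level and the 6 arrays alone kept the counts of rises and falls within 1.5 times. Rises that start under the Tag level have a lower bound only.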
